A study of Mus musculus with 2 samples.

Results

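The Mir181 family of the mouse comprises 6 microRNA genes, Mir181a-1, Mir181b-1, Mir181a-2, Mir181b-2, Mir181c and Mir181d, which lie in 3 pairs on chromosomes 1, 2 and 8. They were selected by gene identity, as the 6 rows that carry these symbols in GENCODE M21 among 1973 gene rows, with earlier results of the same libraries in view. The libraries are microRNA-seq of total RNA, size selected below 30 nt, from the stomach of B6NCrl mouse embryos at 14.5 days, and the group holds 2 biological replicates. The labels record for each replicate the stomach of 1 pup, taken on different days, and a sex of both male and female, so whether a sample is a pool cannot be told from them. No treatment, genotype or age differs between the samples, so the comparisons made are those between the 6 genes and between the 2 libraries.

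A microRNA gene is transcribed into a hairpin, from which a short RNA is cut out of the 5′ arm, the 3′ arm or both. A mature microRNA loaded into an Argonaute protein represses messenger RNAs that pair with its seed, bases 2 to 8. The Mir181 family is best known from lymphocytes, where miR-181a tunes the response to antigen, and it has also been studied in endothelium and in nerve cells. Because several of its genes encode the same mature RNA, the sequences decide which reads can be counted for which gene, and they are given first.

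All 6 genes had mature sequences in the RefSeq table (GRCm38.p6). Their 5p arms, usually the more abundant strand in this family, came to 4 distinct sequences with the same seed, shown here in capitals because it is the feature that makes the genes a family.
miR-181a-5p: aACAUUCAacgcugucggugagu
miR-181b-5p: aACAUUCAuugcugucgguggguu
miR-181c-5p: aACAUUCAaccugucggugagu
miR-181d-5p: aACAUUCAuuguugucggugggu

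The seed ACAUUCA occurred at these 6 loci and at 0 others of the table. Counted from the 5′ end of miR-181a-5p, miR-181b-5p differed by A9U, C10U and A21G and by 1 further base at its 3′ end. miR-181c-5p differed from miR-181a-5p by the loss of 1 base alone (G11del, the G at position 11 deleted). Positions counted in miR-181b-5p, miR-181d-5p differed by C12U and lacked the base at position 24. All these differences lay 3′ of the seed. By sequence, c therefore paired with a, and d with b, and each of the 3 loci carried 1 gene of either kind.

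The 3p arms were 6 distinct sequences with 4 seeds, again in capitals. They are shown because they are what separates the copies of a and of b from each other.
miR-181a-1-3p: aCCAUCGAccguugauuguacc
miR-181a-2-3p: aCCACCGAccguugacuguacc
miR-181c-3p: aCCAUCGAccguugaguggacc
miR-181b-1-3p: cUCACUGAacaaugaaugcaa
miR-181b-2-3p: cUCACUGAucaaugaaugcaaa
miR-181d-3p: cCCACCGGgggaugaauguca

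miR-181a-2-3p differed from miR-181a-1-3p by U5C and U16C, the first of them within the seed. miR-181c-3p had the same seed as miR-181a-1-3p and differed from it by U16G and U19G. miR-181b-2-3p differed from miR-181b-1-3p by A9U and by 1 further base at its 3′ end, and shared its seed. miR-181d-3p had a seed of its own. It differed in 8 places from miR-181b-1-3p and in 8 from miR-181a-2-3p, so the 3p arms did not pair d with b.

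Of the 12 mature arms annotated at the 6 genes, 4 were present at another locus: miR-181a-5p at Mir181a-1 and Mir181a-2, and miR-181b-5p at Mir181b-1 and Mir181b-2. Over the whole table, 118 of 1738 mature entries, 6.79%, occurred at 2 or more loci. Reads that map to several places stand in a line of their own in the deposited tables and are counted for no gene. They numbered 2437052 in replicate 1 and 2263676 in replicate 2, which is 45.6 and 38.9 times all reads counted for the family. The tables do not say how many of them are miR-181a-5p or miR-181b-5p. The levels of Mir181a-1, Mir181a-2, Mir181b-1 and Mir181b-2 given here are therefore those of reads with a unique place. The arms of Mir181c and Mir181d occurred once each in the RefSeq table. By these annotated arms their levels are not limited in this way, while the rest of the genome was not searched.

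How far a read must extend to be told apart can be read from the hairpins of the 4 genes, printed with the 5p arm in capitals.
Mir181a-1 (chr1:137966455-137966541, plus strand): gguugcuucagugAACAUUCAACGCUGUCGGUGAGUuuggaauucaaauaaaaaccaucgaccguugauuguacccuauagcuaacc
Mir181a-2 (chr2:38852735-38852810, plus strand): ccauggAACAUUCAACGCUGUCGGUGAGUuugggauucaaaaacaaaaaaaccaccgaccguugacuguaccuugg
Mir181b-1 (chr1:137966639-137966718, plus strand): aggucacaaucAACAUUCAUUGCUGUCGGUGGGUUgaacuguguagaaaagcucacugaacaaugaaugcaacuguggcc
Mir181b-2 (chr2:38853830-38853918, plus strand): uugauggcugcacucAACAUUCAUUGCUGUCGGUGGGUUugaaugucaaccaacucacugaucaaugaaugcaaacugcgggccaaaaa

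After miR-181a-5p, which is 23 nt long, the hairpins of Mir181a-1 and Mir181a-2 shared 4 further bases, so that a read starting with the arm differed between them from 28 nt on. After miR-181b-5p, which is 24 nt long, the hairpins of Mir181b-1 and Mir181b-2 differed at the first base that follows. It was G in the former and U in the latter, so that a read of 25 nt copied from the hairpin sufficed. Bases added to the 3′ end of an arm and not copied from its hairpin were not considered. With each end of an arm moved by up to 2 nt, 25 variants per arm were compared with the 2202 microRNA precursors of GENCODE M21. For miR-181a-5p, 5 of the 25 variants, 20%, occurred in 1 precursor alone, and for miR-181b-5p 10 of 25, 40%. All 25 variants of each of the 6 3p arms and of miR-181c-5p and miR-181d-5p occurred in 1 precursor alone. The comparison covers annotated precursors and not the whole genome.

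**Figure D1:**
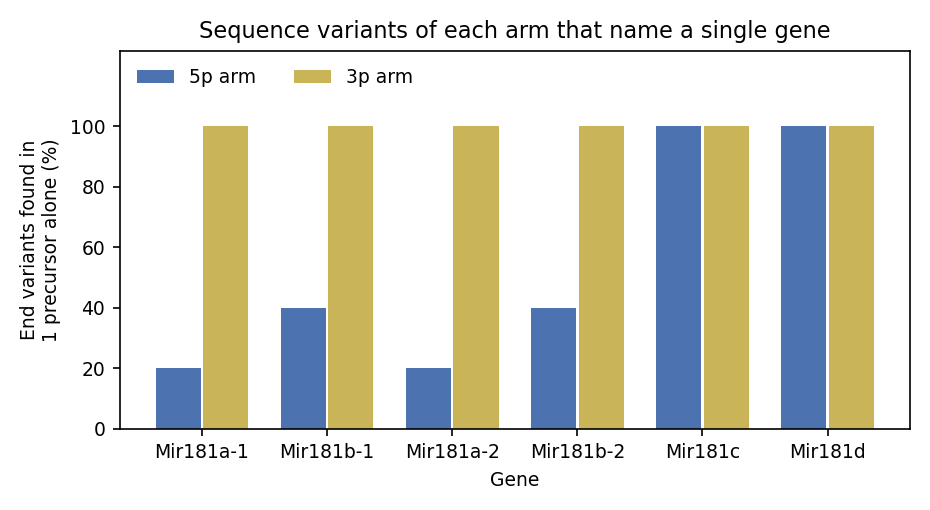
Share of the 25 end variants of each mature arm (each end moved by up to 2 nt) that occurred in a lone microRNA precursor, in percent, by gene and arm. The 5p bars of the a and b genes stand at 20% and 40%, and every other bar at 100%.

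The pair on chromosome 1 (137966455 to 137966718, plus strand) has 97 nt between its precursors and lies within the non-coding gene Gm4258 of the same strand, outside its exons. Mir181b-1 also lies wholly in an exon of A430106G13Rik, a non-coding gene of the same strand, which overlaps the last 11 nt of Mir181a-1. The pair on chromosome 2 (38852735 to 38853918, plus strand) is wider, with 1019 nt between the precursors, and lies in an intron of Nr6a1, which encodes an orphan nuclear receptor and is transcribed from the opposite strand. The pair on chromosome 8 (84178716 to 84178961, minus strand) has 85 nt between Mir181c and Mir181d and lies in an intron of Nanos3, a germ cell gene, on the same strand. Counts on the strand opposite to each of the 6 genes were 0 in both libraries, so the antisense genes Gm26936, Nr6a1 and Gm44144 added no reads to these values.

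Levels are counts per 1000000 gene counts (CPM), out of 5004548 for replicate 1 and 4679914 for replicate 2, and are given as mean ± SD with n = 2. Intervals are exact 95% binomial intervals (Clopper-Pearson) and cover the counting error of reads only. The reads carry no molecular identifiers, so reads and not molecules were counted. A gene counted as detected where each library held at least 10 reads of it, which 361 of 1973 genes did. The profile carried Mir143 of smooth muscle at 152490 ± 12395 CPM, Mir214 of mesenchyme at 14616 ± 821 CPM and Mir429 of epithelium at 19907 ± 932 CPM. Mir133a-1 and Mir133a-2 of striated muscle had 0 counts, which allows at most 0.599 CPM (replicate 1) or 0.641 CPM (replicate 2) of reads with a unique place. These genes share a mature microRNA, whose reads map to several places, so its level is not known from these counts. Mir122 of liver stood at 61.3 ± 6.41 CPM. Of 11 listed microRNAs of smooth muscle, mesenchyme and epithelium, all 11 were detected, and Mir143, Mir429 and Mir214 were the highest of them. Others were far lower, such as Mir145a at 2839 ± 73.5 CPM and Mir200a at 1110 ± 31.2 CPM. The lowest was Mir199a-1 at 8.82 ± 2.02 CPM, a gene that shares a mature arm with Mir199a-2. In a whole organ, fewer cells of a type and less RNA per cell cannot be told apart.

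All 6 Mir181 genes were detected. Together they held 53472 counts in replicate 1 and 58231 in replicate 2, or 1.07% and 1.24% of gene counts. The family total was 11564 ± 1243 CPM, and 18385 CPM where the 5 most abundant genes were left out of the library totals. Mir181c and Mir181d made up most of it, Mir181a-1 and Mir181b-2 followed, and Mir181a-2 and Mir181b-1 were the lowest.

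Mir181c was the most abundant member, with 25595 counts (5114 CPM) in replicate 1 and 25649 counts (5481 CPM) in replicate 2. It ranked 40th and 38th among the 361 detected genes. Mir181d followed with 18106 counts (3618 CPM) and 21689 counts (4634 CPM), at ranks 52 and 48. Mir181c lay above Mir181d in both libraries, and their values did not overlap.

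Mir181a-1 had 5904 counts (1180 CPM) in replicate 1 and 5295 counts (1131 CPM) in replicate 2, and ranked 100th in both. Its SD of 34.2 CPM was small beside its mean of 1156 CPM. Mir181b-2 had 3232 counts (646 CPM) and 5054 counts (1080 CPM), at ranks 122 and 105. At 863 ± 307 CPM, Mir181b-2 had the widest spread of the 6 members relative to its mean, while the SD in CPM was wider for Mir181d. The difference between the means of Mir181b-2 and Mir181a-1 was smaller than the SD of Mir181b-2, although Mir181a-1 was the higher of them in each library.

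Mir181a-2 had 581 counts (116 CPM) in replicate 1 and 474 counts (101 CPM) in replicate 2. Mir181b-1 had 54 counts (10.8 CPM) and 70 counts (15.0 CPM), at ranks 293 and 281 of 361. With a minimum of 100 counts in place of 10, 5 of the 6 members were detected, since Mir181b-1 falls short of it. The order of the 6 genes by CPM was the same in both libraries.

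CPM was not divided by length, because a read of this size covers a whole arm. On a scale of CPM per nt of precursor, Mir181c stood at 57.5 in replicate 1 and 61.6 in replicate 2, and Mir181d at 50.2 and 64.4. On that scale Mir181d was thus the higher of the pair in replicate 2, and the order of Mir181c and Mir181d did not exceed the spread between libraries. The other members kept their order per nt, with Mir181a-1 at 13.3 ± 0.39, Mir181b-2 at 9.70 ± 3.45, Mir181a-2 at 1.43 ± 0.14 and Mir181b-1 at 0.161 ± 0.037.

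**Figure D2:**
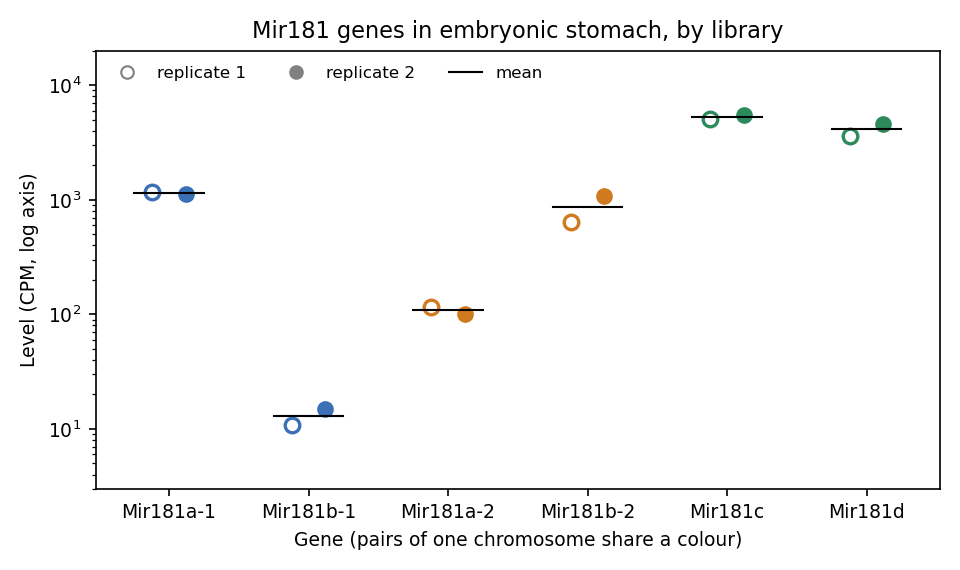
Level of each Mir181 gene in CPM on a log axis, with replicate 1 as open and replicate 2 as filled circles and the mean as a line; genes of 1 chromosome share a colour. The genes run from 12.9 CPM for Mir181b-1 to 5298 CPM for Mir181c, and the 2 circles lie farthest apart for Mir181b-2 and Mir181b-1.

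By locus, the pair on chromosome 8 totalled 43701 counts (8732 CPM) in replicate 1 and 47338 counts (10115 CPM) in replicate 2. This was 81.7% of the family in replicate 1 (95% interval 81.4% to 82.1%) and 81.3% in replicate 2 (81.0% to 81.6%), a share of 81.5% ± 0.31. The pair on chromosome 1 held 11.1% (10.9% to 11.4%) and 9.21% (8.98% to 9.45%) of the family. The pair on chromosome 2 held 7.13% (6.91% to 7.35%) and 9.49% (9.26% to 9.73%). The share of the chromosome 8 pair was nearly the same in both libraries, while the chromosome 1 pair lost and the chromosome 2 pair gained share in replicate 2.

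Within a library, the chromosome 8 pair exceeded the chromosome 1 pair 7.33-fold in replicate 1 and 8.82-fold in replicate 2, a log2 ratio of 3.01 ± 0.19. It exceeded the chromosome 2 pair 11.5-fold and 8.56-fold, a log2 ratio of 3.31 ± 0.30. Both differences were larger than the spread between libraries. The chromosome 1 pair stood at 1191 CPM and 1146 CPM and the chromosome 2 pair at 762 CPM and 1181 CPM. The former was thus 1.56-fold higher in replicate 1 and 0.971-fold the latter in replicate 2. Their log2 ratio, 0.30 ± 0.49, changed sign between the libraries and did not exceed the spread. Over 2 libraries the smallest p of a two-sided exact permutation test of the sign is 0.5, so these ratios carry no p-value. The reads of miR-181a-5p and miR-181b-5p that map to several places are missing from the chromosome 1 and 2 pairs and not from the chromosome 8 pair, and their part in these ratios was not tested.

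**Figure D3:**
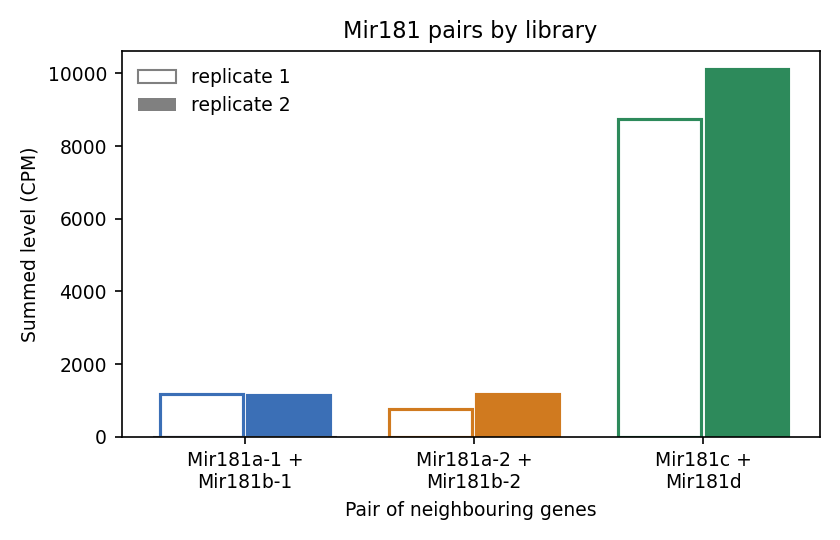
Summed CPM of the 3 pairs of neighbouring Mir181 genes, with replicate 1 as open and replicate 2 as filled bars. The Mir181c and Mir181d bars stand at 8732 and 10115 CPM, and the other 2 pairs lie between 762 and 1191 CPM and change places between the libraries.

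The 2 genes of a locus were counted at very unequal levels on chromosomes 1 and 2, and in opposite directions. On chromosome 1, Mir181a-1 exceeded Mir181b-1 109-fold in replicate 1 (95% interval 83.7 to 146) and 75.6-fold in replicate 2 (59.8 to 97.2), a log2 ratio of 6.51 ± 0.38. On chromosome 2 the b gene was the higher. Mir181b-2 exceeded Mir181a-2 5.56-fold (5.09 to 6.09) and 10.7-fold (9.70 to 11.7), a log2 ratio of Mir181a-2 over Mir181b-2 of -2.95 ± 0.66. On chromosome 8 every arm occurred at 1 locus of the RefSeq table. There Mir181c exceeded Mir181d 1.41-fold (1.39 to 1.44) and 1.18-fold (1.16 to 1.20), a log2 ratio of 0.37 ± 0.18. Each of the 3 ratios kept its direction in both libraries and was larger than the spread between them. On chromosomes 1 and 2, reads that map to several places are missing from both genes of the pair. The spread between libraries does not measure their part in these ratios, which was not tested.

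Set by mature sequence instead of by locus, the a copies differed 10.2-fold in replicate 1 (9.33 to 11.1) and 11.2-fold in replicate 2 (10.2 to 12.3), with Mir181a-1 the higher. The b copies differed 59.9-fold (45.8 to 79.8) and 72.2-fold (57.0 to 92.8), with Mir181b-2 the higher. The a copies together exceeded the b copies 1.97-fold in replicate 1 and 1.13-fold in replicate 2, a log2 ratio of 0.58 ± 0.57. The a total was the higher in both libraries, by a mean log2 ratio about as large as its SD. These totals hold reads with a unique place alone and leave out exact miR-181a-5p and miR-181b-5p reads. The loss need not be equal, since 20% of the miR-181a-5p and 40% of the miR-181b-5p end variants occurred in 1 precursor alone. The ratio is therefore not one of the mature RNAs. Mir181a-1 on chromosome 1 made up most of the a total, and Mir181b-2 on chromosome 2 most of the b total.

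These copy ratios were set beside those of other gene pairs. In all, 21 pairs of detected genes shared an identical mature arm that occurred at no other locus of the RefSeq table. The median fold between the higher and the lower copy was 3.66, with a range from 1.04 for Mir125b-2 over Mir125b-1 to 65.7 for Mir181b-2 over Mir181b-1. The Mir181b pair ranked first and the Mir181a pair, at 10.7-fold, ranked 6th. A fold of 10 or more was found for 6 of the 21 pairs. The pair next to Mir181b was Mir92-1 over Mir92-2, 50.4-fold. In 20 of 21 pairs the same copy was the higher in both libraries. The folds are those of reads with a unique place in every pair, and they are a description, since the Mir181 genes were chosen with their counts known. With the hairpins above, the lower copy Mir181b-1 is the one in which miR-181b-5p is followed by G, and the higher copy Mir181b-2 the one in which it is followed by U. A miR-181b-5p read with an added U that is not copied from a hairpin would match Mir181b-2, whichever gene it came from. The part of such reads in the Mir181b ratio was not tested. The tables count genes and not arms, so the share of 5p and 3p reads in each value is not known.

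**Figure D4:**
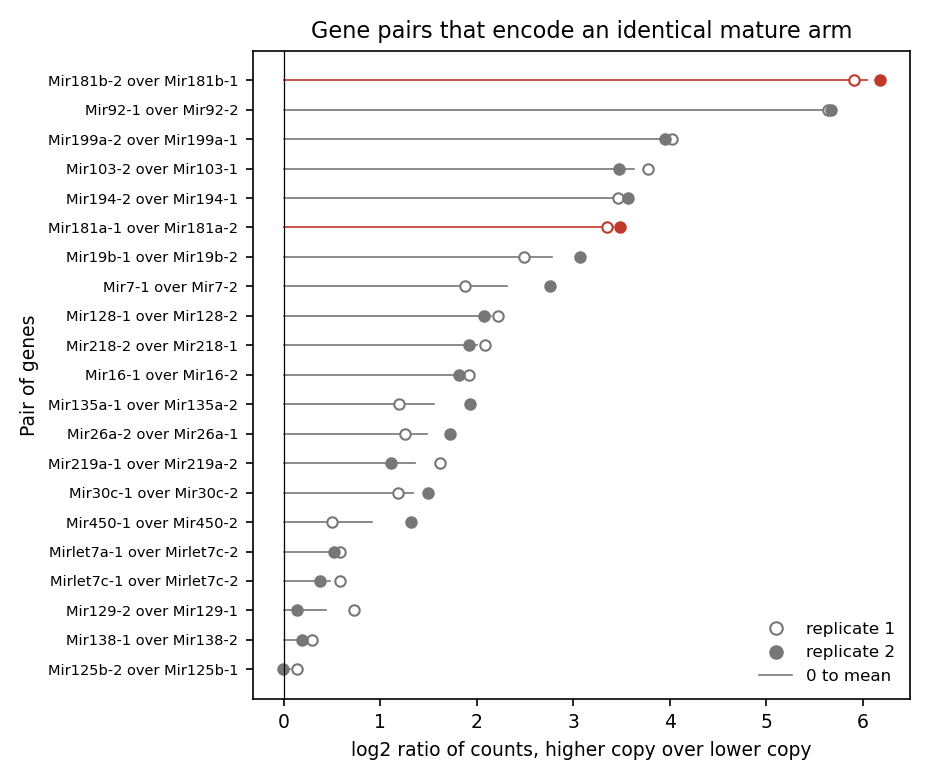
Log2 ratio of counts of the higher over the lower gene for 21 gene pairs with an identical mature arm, with replicate 1 as open and replicate 2 as filled circles and a line from 0 to the mean. The Mir181 pairs are in red; Mir181b-2 over Mir181b-1 has the highest mean, 6.04, and Mir181a-1 over Mir181a-2 the sixth, 3.41.

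The libraries were then compared gene by gene. The family total was higher in replicate 2, with a log2 ratio of replicate 2 over replicate 1 of 0.22 (95% interval 0.20 to 0.24). The loci did not share this shift. The ratio was 0.63 (0.57 to 0.69) for the chromosome 2 pair, 0.21 (0.19 to 0.23) for the chromosome 8 pair and -0.05 (-0.11 to -0.00103) for the chromosome 1 pair.

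Mir181b-2 had a log2 ratio of 0.74 (0.68 to 0.81), the highest of the 196 genes with a mean of 100 CPM or more. The next in that order was Mir451a, an erythroid microRNA, at 0.67, with 612 counts in replicate 1 and 910 in replicate 2. Mir451a was thus higher in the same library as Mir181b-2, and its part in that difference was not tested. An absolute ratio of 0.5 or more was found for 3 of the 196 genes (1.53%), and Mir181b-2 was the sole family member among them. Because this ratio was known when the family was chosen, its rank is a description.

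Mir181d had a ratio of 0.36 (0.33 to 0.39) and ranked 18th of 196. Its neighbour Mir181c had 0.10 (0.07 to 0.12) and ranked 67th, so the genes of this locus, 85 nt apart, differed in how far they moved. Mir181a-1 had -0.06 (-0.11 to -0.00654) and Mir181a-2 -0.20 (-0.37 to -0.02), at ranks 134 and 179. The ratio of Mir181b-1, 0.47, had an interval from -0.06 to 1.01 and was not distinguishable from 0 at its depth of 54 and 70 counts. The median over the 6 members was 0.23, with 4 ratios above 0 and 2 below, and over all 361 detected genes it was 0.04.

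An exact binomial test of each gene's counts, with p-values adjusted by the Benjamini-Hochberg method over all 361 detected genes, compares these libraries and not conditions. At an adjusted p of 0.05 it called 3 of 6 members, Mir181b-2, Mir181c and Mir181d. It called 42.1% of all detected genes and 62.8% of the 196 genes of 100 CPM or more. All 3 members were higher in replicate 2, a direction called for 24.7% of detected genes, and 0 members were called higher in replicate 1, against 17.5%. The members' ratios were in view when they were chosen, so nothing is read from these counts. Other scalings moved the split. TMM factors (edgeR) gave 3 members called higher and 2 called lower in replicate 2, and the size factors of DESeq2 gave 2 and 2. Of all 361 detected genes, 89 were called higher in replicate 2 and 63 called lower. These numbers became 74 and 94 with TMM factors and 58 and 115 with size factors. The sign of each member's ratio was the same under all of these scalings, but its size was not. The ratio of Mir181c fell from 0.10 to 0.05 with TMM factors and to 0.00955 with size factors. Both lie below its counting interval of 0.07 to 0.12, so its shift depended on the scaling.

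**Figure D5:**
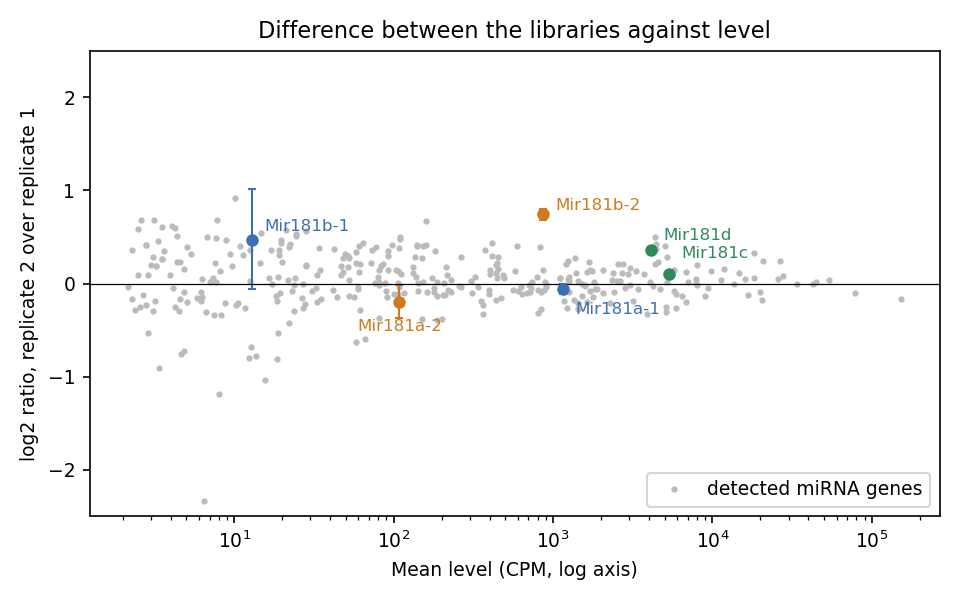
Log2 ratio of replicate 2 over replicate 1 against mean CPM on a log axis, with detected genes in grey, the Mir181 genes in colour with their exact 95% intervals, and 1 gene outside the vertical range. Mir181b-2 lies at 0.74 above the grey points of its level, Mir181d at 0.36, and Mir181a-1 and Mir181a-2 below 0.

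MicroRNAs of the cells in which the family is best known were counted beside it. Of 7 listed microRNAs of lymphoid, myeloid and endothelial cells, 6 were counted and 5 detected, and Mir142 was not analysed here. Mir126a of endothelium stood at 20389 ± 1732 CPM and was called higher in replicate 1, with a log2 ratio of -0.17. Mir155, of activated lymphocytes and macrophages, stood at 73.5 ± 13.0 CPM and was called higher in replicate 2, with 0.36. The other 3 detected genes did not pass the test. Mir223 of myeloid cells had 494 ± 15.5 CPM and a ratio of 0.06, Mir146 80.8 ± 0.69 CPM and -0.02, and Mir150 of mature lymphocytes 11.7 ± 1.49 CPM and -0.26. Mir146b had 2 and 4 counts. The list's median ratio was -0.02, beside 0.04 over all detected genes. The Mir181 total, a sum over 6 genes, was thus above each counted blood cell microRNA of the list and below Mir126a, all single genes. The levels of different microRNAs are taken as counted, and Mir142 has no value here.

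Within 50 kb of the members, further microRNA genes were annotated on chromosome 8 alone. Mir23a, Mir27a and Mir24-2 lie on the opposite strand, with 29.6 kb between Mir181c and Mir23a. Mir23a, a microRNA known from vessels and muscle, stood at 16056 ± 356 CPM with a log2 ratio of 0.05. Mir27a had 361 ± 57.5 CPM and a ratio of -0.33, and Mir24-2, which shares a mature arm with Mir24-1, had 187 ± 12.7 CPM and a ratio of -0.14. Neither had the positive ratio of Mir181c and Mir181d. Gm25110 had 0 counts in both libraries, and Mir3074-2, which overlaps Mir24-2 on the other strand, was not analysed here.

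The genes nearest to each member in level were found by the distance of log2(CPM + 1) over the 2 libraries, a likeness of level and no more. Mir532 (0.03) and Mir433 (0.09) were nearest to Mir181a-1. Gm25927 (0.06) and Mir98 (0.08) were nearest to Mir181c, and Mir342 and Mir182 to Mir181d, at 0.13 and 0.14. Mir101a (0.07) and Mir345 (0.11) lay nearest to Mir181a-2, and Mir7689 (0.08) and Mir1968 (0.24) nearest to Mir181b-1. Mir181b-2 had no gene as close, with Mir374b at 0.25 and Mir125b-1 at 0.43.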

How the data were processed

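MicroRNA-seq of 2 stomach samples of 1 group was analysed. The authors deposited 1 table of counts per gene for each library, made on mm10 with GENCODE M4 and derived from an alignment, per the deposited file text. Which aligner and which counter were run is not given in the sources used here. Counts over both strands were used, a column that is the sum of the 2 strand columns for every gene. The 4 lines that name no gene held 42.8% of reads in replicate 1 and 43.3% in replicate 2 and were left out, among them reads that map to several places, 27.8% and 27.4%.

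Symbols and coordinates came from GENCODE M21 on the same assembly (1894 of 1973 identifiers matched), and sequences from RefSeq (GRCm38.p6). CPM, ratios and exact binomial tests with Benjamini-Hochberg adjustment were computed in Python 3.11.15 with scipy 1.17.1. The binomial test was checked on simulated counts that vary by counting error alone, which is what the test assumes. That check does not cover further variation between libraries. Scaling factors came from edgeR 4.0.16 and DESeq2 1.42.0. With 1 group, a quasi-likelihood test has no contrast. Sequences were aligned with Biopython 1.88.

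The members, lists and tests were chosen with earlier results of these data known. Named genes are the 6 members, microRNA genes within 50 kb, the marker lists, and the 2 genes nearest in level to each member. Mir451a is 1 of 4 listed markers of other cell types and organs. Mir125b-1 and Mir125b-2, the lowest of the copy pairs, and Mir92-1 and Mir92-2, the next to highest, are named after their values were seen. Alternatives were the strand column, 4 denominators, a prior count of 0.5, other count minimums and leaving out each replicate. Nothing in the labels says that the samples share a litter, and the p-values measure the difference between these 2 libraries.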

Additional observations from a re-analysis of the deposited data

How the results depend on the processing

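The ratios between loci and within loci came from counts of 1 library and did not depend on its scaling. With 0.5 added to every count they moved by less than 1 SD. The own-strand column could not move them, since the members had 0 counts on the opposite strand. Leaving out 1 replicate gives back the value of the other library, so the ranges below are the spread between libraries and no further check. The log2 ratio ranged from 2.87 to 3.14 for the chromosome 8 over the chromosome 1 pair. It ranged from 3.10 to 3.52 for chromosome 8 over chromosome 2 and from -0.04 to 0.64 for chromosome 1 over chromosome 2. Within loci the ranges were 6.24 to 6.77 for Mir181a-1 over Mir181b-1, -3.41 to -2.48 for Mir181a-2 over Mir181b-2 and 0.24 to 0.50 for Mir181c over Mir181d.

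The CPM levels depended on the denominator. Without the 5 most abundant genes in the total, the family stood at 18385 CPM and the pairs on chromosomes 1, 2 and 8 at 1861, 1541 and 14983 CPM. With reads that map to several places added to the total, these were 7786, 787, 654 and 6345 CPM. With the own-strand column the chromosome 1 pair stood at 1201 CPM, because that column has a smaller total over all genes.

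The log2 ratio of replicate 2 over replicate 1 fell with every other scaling. With TMM factors it was 0.17 for the family and 0.16 for the chromosome 8 pair, and without the 5 most abundant genes 0.17 and 0.16. With size factors it was 0.13 for the family, 0.12 for the chromosome 8 pair, 0.54 for the chromosome 2 pair and -0.14 for the chromosome 1 pair. The members called were 5 of 6 with TMM factors, where 168 of all 361 detected genes were called. They were also 5 of 6 with the total without the 5 most abundant genes, where 166 of 361 were called. In both settings 3 of these members were higher and 2 lower in replicate 2. With 1 or more counts in place of 10, an alternative chosen after seeing the data, 24 gene pairs shared an arm, and the Mir181b pair ranked 1st and the Mir181a pair 7th. No paired analysis was possible because there is 1 group. Mir181b-1, at 54 and 70 counts, is limited by depth.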
